A study of Mus musculus with 4 samples.

Results

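Adeno-associated virus (AAV) is a small virus without an envelope that is widely used as a gene delivery vector, and its entry into mouse cells depends on a short set of host genes. The 8 genes described here were taken from a fixed list of such host factors and found by symbol among the 32285 genes of the deposited tables, where each had 1 entry. They are the receptor gene AU040320, the Golgi and endosome membrane protein genes Gpr108 and Tm9sf2, the Golgi pump gene Atp2c1, the ubiquitin ligase gene Rnf121, and Vps51, Vps53 and Vps54, which encode subunits of a vesicle tether. No virus or vector is named in the sample labels, and all values are levels of the cells' own transcripts.

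Single-cell RNA libraries were made from the middle phalanx (P2) level of the digit of wild-type FVB/NJ mice aged 8 weeks, with males and females pooled per the labels and no transgene named. One library came from unamputated digits and 1 each from fibrosing tissue at 12, 17 and 28 days post-amputation (dpa), a level of injury that the labels call non-regenerative. Tissue was dissociated with trypsin and collagenase I, and live cells were sorted. Each group held 1 library from a pool whose number of animals the labels do not give, so no difference between dpa and unamputated tissue has a replicate check, and no p-value is given for one.

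The deposited matrices held from 92313847 to 197140774 unique molecular identifiers (UMIs, each standing for 1 captured transcript) over 8813 to 16045 barcodes per library. After filtering, 34951 cells remained, with library medians from 6654 UMIs per cell at 28 dpa to 11630 in the unamputated library. Any pair of libraries shared 19 to 87 barcodes, at most 0.570% of the smaller one. The libraries went against the pooled-sex label. In the 12 dpa library, 54.3% of kept cells had Xist and no Y-linked UMIs, and the other 3 libraries held 1 such cell in all. In the unamputated, 17 and 28 dpa libraries, 77.8%, 58.4% and 47.1% of cells had Y-linked and no Xist UMIs. Sex and time cannot be told apart in any comparison of the 12 dpa library. Cells were named from marker genes as marker-like classes, and 760, 488, 1869 and 2464 of them in the unamputated, 12, 17 and 28 dpa libraries were fibroblast-like. All 9 fibroblast markers were detected in at least 25% of these cells in every library. Clusters of cells had been named from the same markers at the same 25%, so this is no separate check of identity. Clusters with no fibroblast marker among their leading genes gave 148, 144 and 457 of these cells in the unamputated, 12 and 17 dpa libraries. At 28 dpa they gave 210, 88, 8 and 50 cells. Each of them had 7 or 8 of the 9 markers detected at that rate.

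AU040320 is the mouse gene for the AAV receptor, also known as Kiaa0319l, a membrane glycoprotein that cycles between the cell surface, endosomes and the trans-Golgi network. Virus particles taken up by the cell follow the same backward route to the Golgi before they reach the nucleus. Genetic screens in cultured cells have found that loss of the receptor, of Gpr108, of Golgi ion homeostasis or of the tether that docks endosome-derived vesicles at the Golgi lowers transduction. In tissue that is not exposed to a vector, the same proteins serve ordinary membrane traffic, glycan synthesis and protein sorting.

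In GRCm38 coordinates from GENCODE M21, AU040320 lies at chr4:126753544-126870070 on the plus strand, Gpr108 at chr17:57234635-57248446 on the minus strand and Tm9sf2 at chr14:122107038-122159604 on the plus strand. Atp2c1 lies at chr9:105403539-105527319 and Rnf121 at chr7:102019137-102065469, both on the minus strand. Vps51 lies at chr19:6067842-6077231 on the minus strand, Vps53 at chr11:76046226-76179647 on the minus strand and Vps54 at chr11:21239281-21321136 on the plus strand. The genes span from 9.39 kb for Vps51 to 133.4 kb for Vps53. Vps53 shares 58661 bp with Glod4 and Vps51 shares 532 bp with Tm7sf2 on the same strand, so reads from the shared stretches could be counted for either gene or dropped. The stretch shared with Tm7sf2 is the 3′ end of Vps51, the end that 3′ libraries read. That shared with Glod4 lies away from the 3′ end of Vps53. AU040320 overlaps Zmym4 by 8132 bp, and Atp2c1 overlaps Aste1 by 8691 bp and Gm19667 by 9675 bp, in each case on opposite strands. Whether the counting used strand is not given in the sources used here.

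Promoter windows from RefSeq (GRCm38.p6) were matched for 7 of the 8 genes. A pair of them is printed, for Gpr108, whose level in fibroblast-like cells was higher in all 3 dpa libraries than in the unamputated one, and for Vps54, whose level was lower in all 3. AU040320, Atp2c1, Rnf121 and Vps53 were lower in all 3 too and are not printed. Both printed windows overlap no annotated exon. They were searched on both strands for the E-box CACGTG, the longer CLEAR element that contains it, the NRF1 palindrome, the cyclic AMP element TGACGTCA, the ETS motif CCGGAAG, the GC box GGGCGG, the letters CCAAT and the TATA box TATAAA, and capitals mark every match. The window of Gpr108 is chr17:57247690-57247939, minus strand, written 5′ to 3′, with a GC content of 48.0%, and its capitals are 4 matches to CCAAT, each on the other strand and so read as ATTGG. This window lies inside the span that GENCODE gives for the gene, and a further RefSeq start of Gpr108 has an overlapping window, chr17:57247471-57247720, with 1 match, not printed. The window of Vps54 is chr11:21238782-21239031, plus strand, with a GC content of 83.2%, and its capitals are 3 matches to GGGCGG, 1 of them on the other strand and so read as CCGCCC.
Gpr108: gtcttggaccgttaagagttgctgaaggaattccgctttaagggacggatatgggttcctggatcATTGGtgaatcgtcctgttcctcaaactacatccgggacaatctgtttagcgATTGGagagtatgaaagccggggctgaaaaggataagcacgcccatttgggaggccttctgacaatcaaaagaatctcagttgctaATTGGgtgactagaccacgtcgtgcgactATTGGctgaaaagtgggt
Vps54: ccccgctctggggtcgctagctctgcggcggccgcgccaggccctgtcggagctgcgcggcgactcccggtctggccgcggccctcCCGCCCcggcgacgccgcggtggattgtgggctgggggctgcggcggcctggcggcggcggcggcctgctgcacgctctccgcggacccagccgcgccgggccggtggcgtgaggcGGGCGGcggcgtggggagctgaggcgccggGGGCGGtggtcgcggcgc
Among 32851 promoter windows of the same table, CCAAT was found in 33.8% and GGGCGG in 32.7%, with a median GC content of 52.4%. The other letters searched were found in 6.02% (CACGTG), 0.240% (the CLEAR element), 0.782% (the NRF1 palindrome), 1.55% (TGACGTCA), 6.91% (CCGGAAG) and 12.4% (TATAAA) of windows. Windows of AU040320, Rnf121 and Vps53, also lower genes, held CCAAT or ATTGG too, so the printed pair does not separate higher from lower genes by these letters. A match is a description of the letters and no evidence that a factor binds there.

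The main question was how the 8 genes stood in fibroblast-like cells of amputated against unamputated digits. Levels are in CPM, the UMIs of a gene scaled to the total UMIs of its class in that library, a scale on which a gene can be compared with itself and not with other genes. Ratios are log2 of the dpa over the unamputated level, with exact 95% intervals that cover counting error only. A member was counted as past the threshold at 1.5-fold or more, and all 8 passed the minimum of 5 CPM in either library.

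The receptor gene AU040320 was lower in all 3 dpa libraries. It stood at 28.2 CPM (420 UMIs) in the unamputated library, 18.0 CPM (139 UMIs) at 12 dpa, 20.1 CPM (465 UMIs) at 17 dpa and 17.5 CPM (426 UMIs) at 28 dpa. The unamputated level was the highest of the 4, and the dpa levels lay close to each other. The log2 ratios were -0.65 (95% interval -0.94 to -0.37), -0.49 (-0.68 to -0.29) and -0.69 (-0.89 to -0.49) in order of time, a level of 0.638, 0.714 and 0.620 of the unamputated one. Among all genes that passed the minimum, 24.2%, 7.19% and 14.0% had a lower ratio in the same comparisons.

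Gpr108, which encodes a Golgi membrane protein that most AAV serotypes need after receptor binding, was higher in all 3. Its level was 20.8 CPM (310 UMIs) unamputated, then 26.6 (206 UMIs), 26.6 (615 UMIs) and 28.3 CPM (690 UMIs). The unamputated library was the lowest and the others were nearly level. The log2 ratios of 0.36 (0.09 to 0.62), 0.36 (0.16 to 0.56) and 0.44 (0.25 to 0.64) were under the 1.5-fold threshold. Tm9sf2, an endosome and Golgi membrane protein gene that also affects heparan sulfate synthesis, stood at 132, 114, 146 and 129 CPM in the unamputated, 12, 17 and 28 dpa libraries. Its ratios had no common direction, at -0.21 (-0.33 to -0.10), 0.14 (0.06 to 0.22) and -0.03 (-0.12 to 0.05).

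Atp2c1 encodes the secretory pathway pump that loads the Golgi with calcium and manganese. Its level was 72.3 CPM (1077 UMIs) unamputated, 48.2 (373 UMIs) at 12 dpa, 63.3 (1462 UMIs) at 17 dpa and 61.5 (1499 UMIs) at 28 dpa. It was highest unamputated and lowest at 12 dpa, with log2 ratios of -0.58 (-0.76 to -0.41), -0.19 (-0.31 to -0.08) and -0.23 (-0.35 to -0.12). Rnf121, a ubiquitin ligase gene of the early secretory pathway, was at 29.1, 24.4, 26.6 and 27.2 CPM, with ratios of -0.25, -0.13 and -0.09.

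The tether subunits differed from each other. The Golgi-associated retrograde protein complex (GARP) consists of Vps51, Vps52, Vps53 and Vps54, and the related endosomal complex EARP carries Vps50 in place of Vps54. Vps54 stood at 61.1 CPM (911 UMIs) unamputated, 32.4 (251 UMIs) at 12 dpa, 55.5 (1282 UMIs) at 17 dpa and 44.7 (1089 UMIs) at 28 dpa. The 12 dpa library was the lowest and the 17 dpa library was near the unamputated one, with log2 ratios of -0.91 (-1.12 to -0.71), -0.14 (-0.26 to -0.02) and -0.45 (-0.58 to -0.32). Vps51, the subunit shared by both complexes, was at 8.12 (121 UMIs), 8.66 (67 UMIs), 7.23 (167 UMIs) and 14.5 CPM (353 UMIs). The 28 dpa library alone stood above the rest, with a log2 ratio of 0.83 (0.53 to 1.14), or 1.78-fold, against 0.09 (-0.36 to 0.54) and -0.17 (-0.51 to 0.18) at 12 and 17 dpa. The 3′ end of Vps51 is shared with Tm7sf2, and the part of that overlap in these ratios was not tested. Vps53, also shared by both complexes, was at 26.4, 20.2, 24.9 and 24.3 CPM, with ratios of -0.39 (-0.66 to -0.12), -0.08 and -0.12. Of the partner subunits outside the 8 genes, Vps52 was level at 17.0, 16.4, 17.4 and 17.5 CPM, and Vps50 was at 28.6, 20.4, 25.5 and 22.1 CPM, with a ratio of -0.49 (-0.76 to -0.22) at 12 dpa.

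**Figure D1:**
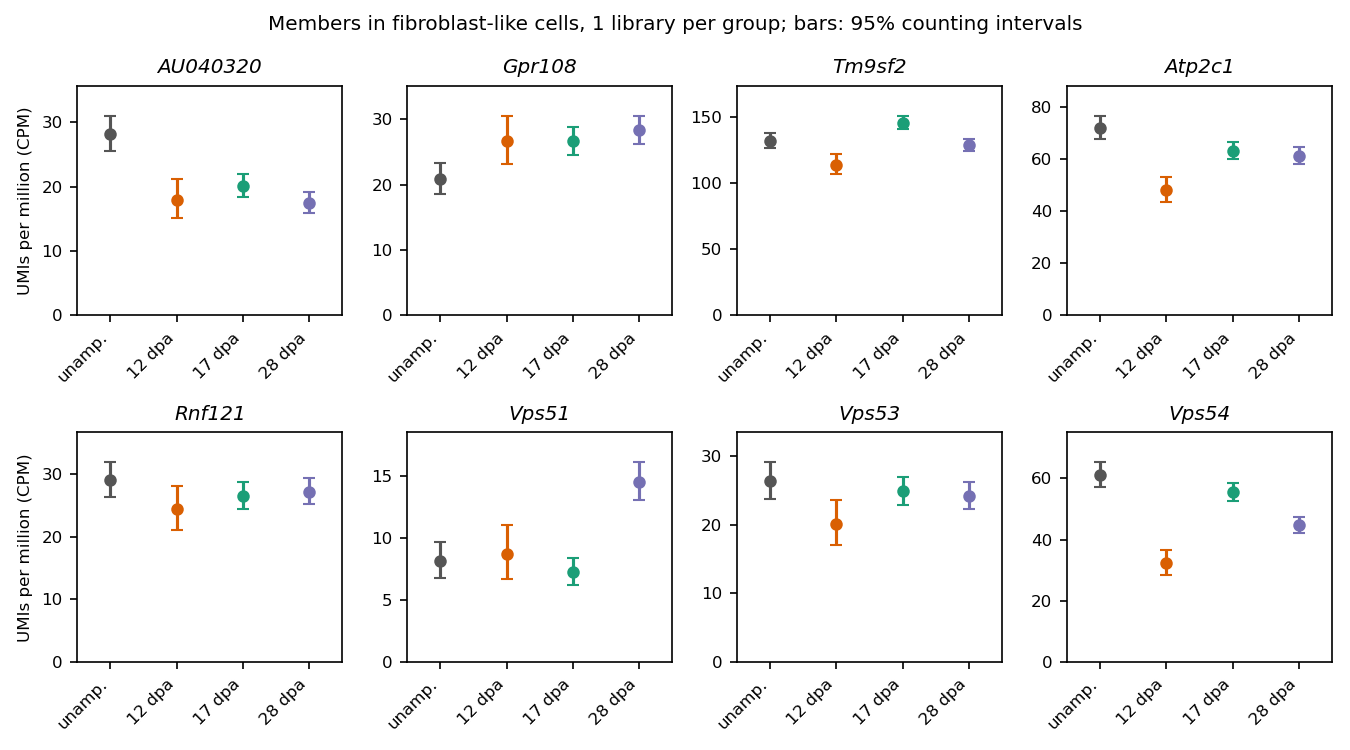
Level of each of the 8 genes in fibroblast-like cells (y axis, CPM, 1 panel per gene, axes from 0) in the unamputated, 12, 17 and 28 dpa libraries (x axis), 1 library per group, with bars for exact 95% counting intervals. AU040320 was highest in the unamputated library at 28.2 CPM, Gpr108 lowest there at 20.8 CPM, and Vps51 highest at 28 dpa at 14.5 CPM.

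At 12 dpa, 2 of the 8 genes were past 1.5-fold in fibroblast-like cells, AU040320 and Vps54, both lower, where 41.2% of the 10946 genes that passed the minimum were past it in either direction and 27.6% were lower. At 17 dpa, 0 of 8 were past it, against 8.17% of genes. At 28 dpa, AU040320 was past it lower and Vps51 higher, against 27.2% of genes, 18.5% lower and 8.69% higher. The shares of members were thus near those of all genes. The median log2 ratio of the 8 genes was -0.32, -0.13 and -0.11, beside -0.22, -0.03 and -0.14 over all genes. The 3 comparisons share the unamputated library, so a low or high value there enters all of them. Its fibroblast-like cells were also the deepest, with a median of 18651.5 UMIs per cell against 14091, 11754 and 8644.5, and the part of depth in these ratios was not tested. Their median share of mitochondrial UMIs was 3.33%, against 2.70%, 1.87% and 2.89% at 12, 17 and 28 dpa, and its part was not tested either. The 9 fibroblast markers summed to 39642 CPM in the unamputated, 28978 in the 12 dpa, 44229 in the 17 dpa and 37816 in the 28 dpa library. Markers of other cell types moved too. The 7 tenocyte markers summed to 593, 863, 478 and 479 CPM in fibroblast-like cells of the unamputated, 12, 17 and 28 dpa libraries and the 6 chondrocyte markers to 29.8, 111, 16.2 and 8.98 CPM, both highest at 12 dpa. The 11 keratinocyte markers summed to 134, 175, 221 and 409 CPM, highest at 28 dpa. Of these, 3, 4, 1 and 1 tenocyte, 0 chondrocyte and 3, 3, 2 and 4 keratinocyte markers were detected in at least 25% of the cells, and 2 chondrocyte markers were at 0 at 12 dpa. In the same order, neutrophil markers summed to 48.8, 5.30, 56.8 and 4.72 CPM and mural markers to 67.2, 81.3, 115 and 132 CPM. Osteoclast markers summed to 800, 801, 1058 and 1167 CPM and macrophage markers to 18.8, 32.8, 28.1 and 42.6 CPM. Their part in the ratios was not tested.

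The fibroblast-like class at 12 dpa held a different mix of cells. A cluster led by Mxd3, Birc5 and Hmmr, the last 2 known as genes of dividing cells, gave 104 of its 488 cells and 21 of 760 in the unamputated library, and at 12 dpa had AU040320 at 11.3 CPM and Vps54 at 25.9 CPM. With only the clusters that had a fibroblast marker among their 10 leading genes, which left 344 and 612 cells in the 12 dpa and unamputated libraries, AU040320 at 12 dpa was at a log2 ratio of -0.41 and no longer past 1.5-fold. Gpr108 was then past it, at 0.62, and Vps54 was at -0.90, so the count stayed at 2 with 1 gene exchanged.

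The ratios at 12 dpa depended further on which cells were called fibroblast-like. With a looser filter on cells, AU040320 at 12 dpa turned to a log2 ratio of 0.12, Vps54 to -0.15, and no member was past 1.5-fold. At Leiden resolution 2, a finer clustering, the same ratios were -0.24 and -0.51. At 28 dpa, AU040320 kept a negative ratio under all alternatives run, from -0.82 to -0.26, but was no longer past 1.5-fold with trimmed-mean (TMM) scaling (-0.49) or centred on genes of similar span (-0.26). Vps51 at 28 dpa kept a positive ratio, from 0.62 to 1.04. With TMM scaling in place of total UMIs, Gpr108 passed 1.5-fold at 12 dpa (0.59) and 28 dpa (0.65), and AU040320 at 12 dpa no longer did (-0.41). Under it Vps53 and Rnf121 at 28 dpa turned to 0.08 and 0.11, Tm9sf2 at 12 dpa to 0.02 and at 28 dpa to 0.17.

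Fibroblast-like cells were not the same mix in each library, so the genes were also read within clusters. In the cluster led by Pcolce2 and Pi16, with 487, 136, 1210 and 1403 cells, AU040320 had log2 ratios of -0.15 (-0.64 to 0.31), -0.45 and -0.59 (-0.85 to -0.34). In the cluster led by Wnt2 and Prelp, with 125, 208, 202 and 705 cells, it had -0.44 (-0.97 to 0.07), -0.86 and -0.82 (-1.22 to -0.40). The 12 dpa intervals of AU040320 included 0 in both clusters, and those at 17 and 28 dpa did not. Vps51 at 28 dpa was at 10.6 against 7.31 CPM in the first cluster, a ratio of 0.54 (0.10 to 0.99), and at 18.9 against 7.91 CPM in the other, a ratio of 1.26 (0.65 to 1.92). Gpr108 was higher than unamputated in every dpa library in both, by 0.28 to 0.44 in the first and 0.61 to 0.86 in the other. Its interval included 0 at 12 dpa in the first cluster (-0.06 to 0.92) and in no other of these comparisons. Vps54 was lower in both at 12 dpa, by -0.69 and -0.65.

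The 12 dpa library held few named fibroblast-like cells and 1619 cells of a cluster that stayed unnamed, led by C1qtnf3, Prss35 and Crabp1, with the tendon genes Scx and Tnmd among its 10 leading genes. That cluster held 626, 293 and 351 cells in the unamputated, 17 and 28 dpa libraries. In it AU040320 stood at 24.7, 19.6, 13.7 and 15.4 CPM in the unamputated, 12, 17 and 28 dpa libraries, with log2 ratios of -0.33, -0.85 and -0.68. Gpr108 was at 21.9 CPM unamputated and at 27.0 to 29.3 CPM in the dpa libraries, and Vps54 at 50.2 CPM against 33.2 to 40.0 CPM. The unamputated library was the highest of the 4 for AU040320 and Vps54 and the lowest for Gpr108 there too.

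Over all kept cells, AU040320 was at 32.8, 25.0, 22.7 and 20.3 CPM, Gpr108 at 20.1, 25.9, 25.9 and 26.9 CPM, and Vps54 at 87.4, 49.5, 59.9 and 53.3 CPM. Vps54 was past 1.5-fold at 12 dpa (log2 ratio -0.82), where 21.4% of genes were past it either way and 17.0% lower, and 0 members were at 17 dpa, against 13.5%. AU040320 (-0.69) and Vps54 (-0.71) were past it at 28 dpa, against 26.7% of genes, 20% lower. Centred on genes of similar span, the ratio of Vps54 at 12 dpa was -0.35 and those of AU040320 and Vps54 at 28 dpa were -0.22 and -0.24, all under the threshold. With TMM scaling, the ratios of AU040320 and Vps54 at 28 dpa were under it too, at -0.44 and -0.47. These sums mix cell types whose shares differed between libraries. Ratios were therefore taken within each of 10 named classes with at least 50 cells in every library. AU040320 was below its unamputated level in 10 of 10 classes in each of the 3 comparisons, where 9.66%, 6.04% and 9.07% of all genes were below in all 10. These counts take the direction alone. The interval of AU040320 included 0 at 12 dpa in endothelial-like (-0.31 to 0.12) and keratinocyte-like cells (-0.23 to 0.13). It did so too at 17 dpa in macrophage-like cells (-0.35 to 0.09), and lay below 0 in the other comparisons of the fibroblast-, endothelial-, macrophage- and keratinocyte-like classes. At 28 dpa the T or NK-like and neutrophil-like sums held 210965 and 269260 UMIs of all genes, so directions there rest on few UMIs. Gpr108 was below in 2, 2 and 0 of 10, where 14.1%, 14.0% and 16.4% of genes were below in at most 2. Lower was the usual direction: in the fibroblast-, endothelial-, macrophage- and keratinocyte-like classes, 30.8% to 50.2% of all genes were above their unamputated level. Vps54 was below in 10, 9 and 10 classes, Atp2c1 in 10, 10 and 9, and Vps53 in 9, 8 and 10. Tm9sf2 (10, 6 and 7), Rnf121 (7, 6 and 8) and Vps51 (7, 7 and 3) had no such common direction. Part of these directions turned with the scaling. Centred on genes of similar span in the fibroblast-, endothelial-, macrophage- and keratinocyte-like classes, AU040320 was below in 2, 3 and 4 of the 4, and above at 12 dpa in endothelial-like (0.18) and keratinocyte-like cells (0.21) and at 17 dpa in macrophage-like cells (0.02). Atp2c1 was then below in 2, 2 and 0 of 4, with 0.19 to 0.26 at 28 dpa, and Vps53 in 0, 0 and 1. Vps54 was below in 4, 4 and 3, and Gpr108 in 0 at all 3 times. With TMM scaling, AU040320 was below in 3, 4 and 4 of 4, Atp2c1 in 4, 3 and 3, Vps53 in 2, 3 and 3, Vps54 in 4 at all 3 times and Gpr108 in 0. The classes of a library share its depth and processing, so they are not separate replicates.

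In macrophage-like cells, Vps54 alone was past 1.5-fold at 12 dpa, with a log2 ratio of -0.78, beside 23.4% of genes, 19.0% lower. None was at 17 dpa, beside 15.3%. At 28 dpa, 4 members were past it, AU040320 at -0.59, Rnf121 at -0.62 and Vps54 at -0.68 lower and Vps51 at 0.77 higher, from 13.4 to 23.0 CPM, beside 29.2% of genes, 17.4% lower and 11.8% higher. With TMM scaling Vps51 alone stayed past it at 28 dpa (0.87), with AU040320 at -0.49, Rnf121 at -0.52 and Vps54 at -0.58. Centred on genes of similar span, Vps51 at 28 dpa was again the only one (0.68), with AU040320 at -0.29 and Vps54 at -0.38, and at 12 dpa Vps54 was at -0.27. Most macrophage-like cells belonged to different clusters in these libraries. The cluster led by Ms4a7 and Aif1 held 1155 unamputated and 161 cells at 28 dpa, and the one led by Ccl24 and Folr2 held 208 and 1666. Within them the ratio of Vps51 at 28 dpa was 0.87 (0.20 to 1.49) and 0.26 (-0.21 to 0.75), that of Rnf121 -0.93 (-1.60 to -0.33) and -0.27 (-0.65 to 0.13), and that of Vps54 -1.15 (-1.73 to -0.63) and -0.78 (-1.05 to -0.51). The receptor gene AU040320 was at -0.40 (-1.03 to 0.17) and -0.36 (-0.78 to 0.08). Of these 4 genes, Vps54 alone had intervals below 0 in both clusters.

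In keratinocyte-like cells, no member was past 1.5-fold at 12 or 17 dpa, beside 12.0% and 12.1% of genes. At 28 dpa, AU040320 (-0.62) and Vps54 (-0.65) were, both lower, beside 22.0% of genes, 15.8% lower. Neither was past it with TMM scaling (-0.44 and -0.47) or centred on genes of similar span (-0.14 and -0.17), and AU040320 was not with means over cells (-0.40). In vascular endothelial-like cells, none was at 12 or 17 dpa, beside 10.9% and 9.47%. At 28 dpa, Vps53 was, at 22.8 against 34.8 CPM and a log2 ratio of -0.61 (-0.99 to -0.25), beside 20.6% of genes, 13.3% lower. It was no longer past the threshold with the looser filter on cells (-0.45), no doublets removed (-0.47), each cell named alone (-0.56), TMM scaling (-0.56), means over cells (-0.41) or centring on genes of similar span (-0.17).

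The ratios moved with the genomic span of genes. In fibroblast-like cells, Spearman's rho between span and log2 ratio was -0.54 over 10941 genes at 12 dpa, -0.32 over 10796 at 17 dpa and -0.51 over 10812 at 28 dpa. All genes share the same libraries and their depth. When genes were ranked by span into 5 equal groups, the shortest had a median ratio of 0.36 at 12 dpa and 0.27 at 28 dpa, and the longest -0.73 and -0.54. AU040320, Atp2c1 and Vps53 fell in the longest group, and Vps51 and Gpr108 in the next to shortest. Centred on genes of similar span, AU040320 had ratios of -0.01, -0.38 and -0.26 at 12, 17 and 28 dpa, and Vps54 -0.43, -0.05 and -0.14. Gpr108 kept 0.21, 0.31 and 0.36, and Vps51 0.75 at 28 dpa. Atp2c1, Rnf121 and Vps53 were then above 0 at 12 and 28 dpa, at 0.05 and 0.19, 0.10 and 0.15, and 0.25 and 0.31. Tm9sf2 was above 0 in all 3, at 0.14, 0.22 and 0.21. The nuclear RNA Neat1 was lower in fibroblast-like cells of all 3 dpa libraries, with log2 ratios of -1.19, -0.30 and -0.41, and Malat1 was at -0.43, 0.04 and 0.09. The part of intronic or nuclear RNA in the ratios was not tested.

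**Figure D2:**
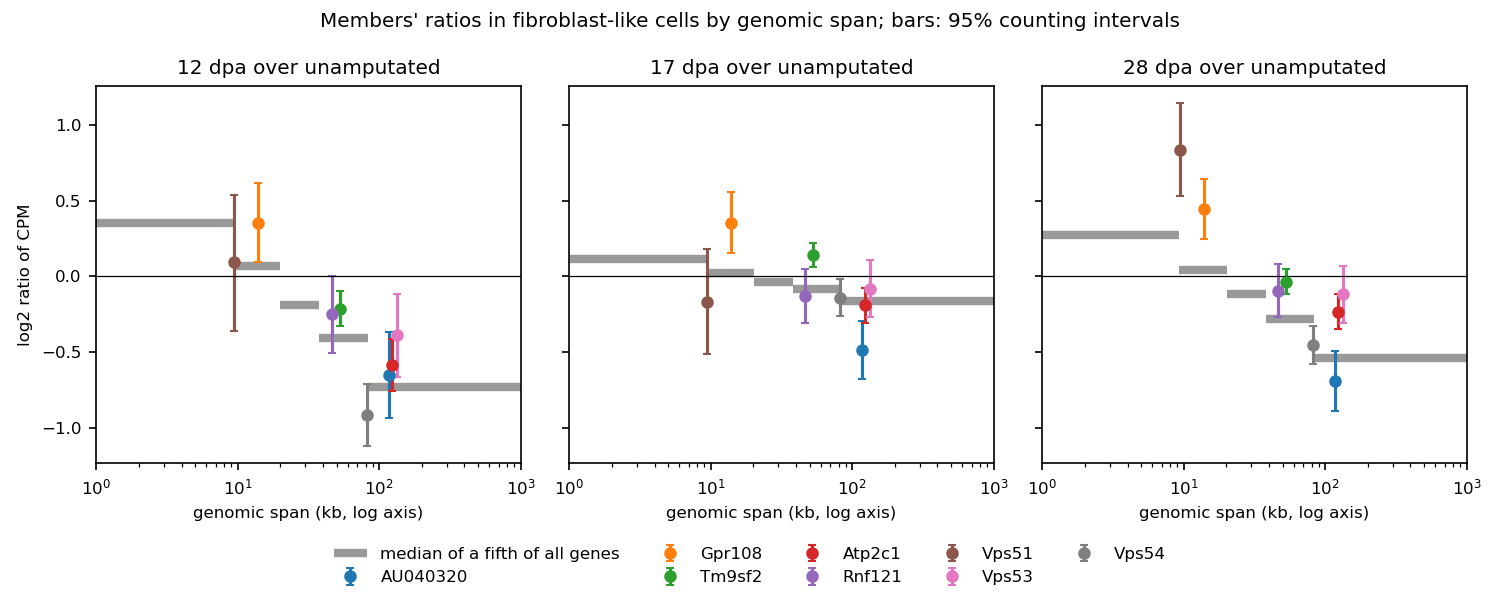
Log2 ratio of the dpa over the unamputated level in fibroblast-like cells (y axis) against genomic span in kb (x axis, log scale), 1 panel per dpa library, with coloured points and 95% counting intervals for the 8 genes and grey bars for the medians of 5 equal groups of all genes by span. The bars fall from 0.36 to -0.73 at 12 dpa, from 0.12 to -0.16 at 17 dpa and from 0.27 to -0.54 at 28 dpa, and Vps51 at 28 dpa stands above its bar.

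The next question was how each gene's level was ordered across cell classes. Levels are means with the SD over the 4 libraries, 1 per condition, over 10 named classes and 2 unnamed clusters. AU040320 had a shallow order. It was highest in keratinocyte-like (34.3 CPM ± 6.79, SD, n = 4) and vascular endothelial-like cells (33.4 ± 5.02), at 20.9 ± 4.97 in fibroblast-like and lowest at 18.3 ± 8.74 in neutrophil-like cells. No neighbours in the order of AU040320 differed beyond their spread. Gpr108 was highest in macrophage-like cells (32.0 ± 2.88), at 25.6 ± 3.29 in fibroblast-like cells and lowest in neutrophil-like cells (11.7 ± 2.20), where it stood clear of the next class, the endothelial-like cells (19.4 ± 2.41). The neutrophil-like class held 410115 UMIs of all genes at 12 dpa and 269260 at 28 dpa, so its levels there rest on few UMIs. Its mix of cells differed too. A cluster led by Retnlg and Mmp8 gave it 431, 0, 183 and 0 cells in the unamputated, 12, 17 and 28 dpa libraries. One led by Chil3 and Fcnb gave it 73, 0, 27 and 0.

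Tm9sf2 was highest in mural-like (144 ± 25.5) and Schwann-like cells (139 ± 16.7), followed by fibroblast-like cells (130.4 ± 13). It was lowest in neutrophil-like cells (38.5 ± 4.61), clear of the keratinocyte-like cells above them (84.2 ± 8.60). Atp2c1 stood clear in Schwann-like cells, at 136 ± 12.3 and 123 to 153 CPM, above the dendritic-like cells next in order (77.1 ± 21.7). Rnf121 was also highest in Schwann-like cells, the glia that wrap peripheral axons, at 70.8 ± 11.7 against 35.1 ± 4.92 in the next class, and lowest in neutrophil-like cells at 6.19 ± 2.24.

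Vps51 was highest in dendritic-like (18.0 ± 4.21), T or NK-like (16.8 ± 3.80) and macrophage-like cells (16.5 ± 4.73), and stood at 9.62 ± 3.29 in fibroblast-like cells, with no gap between neighbours. Vps53 was highest in keratinocyte-like cells (47.9 ± 6.85), clear of macrophage-like cells (32.7 ± 2.51), and stood at 23.9 ± 2.66 in fibroblast-like and 14.3 ± 4.93 in neutrophil-like cells. Vps54 ranged from 338 ± 183 in T or NK-like cells to 46.2 ± 11.7 in macrophage-like cells, with 48.4 ± 12.7 in fibroblast-like cells. Vps51 and Vps54 both had high levels in T or NK-like cells, and the orders of the 3 GARP subunits were not tested against each other.

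**Figure D3:**
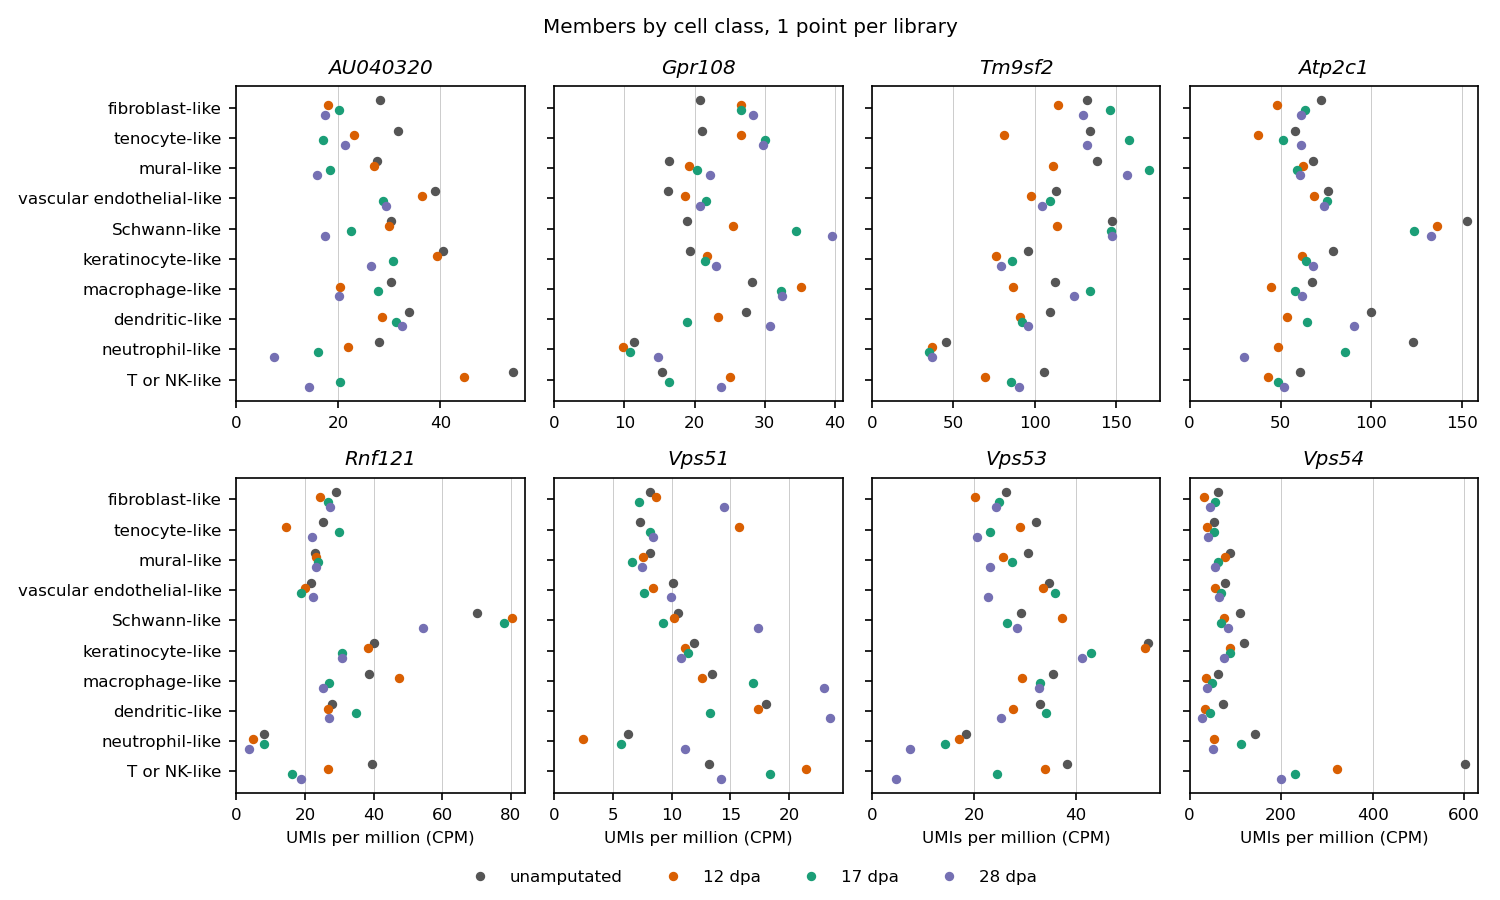
Level of each of the 8 genes (CPM, 1 panel per gene) in 10 marker-defined classes, with 1 point per library. Schwann-like cells stand clear for Atp2c1 (123 to 153 CPM) and Rnf121 (54.5 to 80.3 CPM), keratinocyte-like cells for Vps53 and T or NK-like cells for Vps54 (199 to 602 CPM).

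The difference between fibroblast-like cells and 4 other classes was tested with edgeR's quasi-likelihood test on UMI sums per class and library, with the library as a block, TMM scaling and Benjamini-Hochberg adjustment over all genes. The 4 libraries, 1 per condition, are the replicates, so these p-values are about class differences held across conditions. Differences are log2 of fibroblast-like over the other class.

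Against vascular endothelial-like cells, Gpr108 (0.60, SE 0.11, adjusted p = 0.0024), Tm9sf2 (0.50, SE 0.10, adjusted p = 0.0026) and Rnf121 (0.57, SE 0.10, adjusted p = 0.0017) were higher in fibroblast-like cells. AU040320 was lower (-0.47, SE 0.11, adjusted p = 0.0074), and so was Vps54 (-0.27, adjusted p = 0.046). That is 3 of 8 higher and 2 lower, beside 33.7% and 27.4% of 15377 genes. The call of Vps54 did not hold without any 1 of the unamputated, 12, 17 or 28 dpa libraries, with adjusted p of 0.068, 0.11, 0.065 and 0.11. That of AU040320 was lost with the looser filter on cells (adjusted p = 0.18).

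Against macrophage-like cells, 0 members were higher and 4 lower by edgeR's test, also by DESeq2 and with 0 higher at an unadjusted p under 0.05, beside 32.5% and 29.9% of 15742 genes. The lower ones were Vps51 (-0.89, SE 0.16, adjusted p = 0.0032), Vps53 (-0.55, SE 0.10, adjusted p = 0.0034), Gpr108 (-0.42, SE 0.11, adjusted p = 0.015) and AU040320 (-0.34, adjusted p = 0.036). AU040320 lost its call without the unamputated, 12, 17 or 28 dpa library (adjusted p of 0.072, 0.058, 0.15 and 0.071), and Gpr108 without the unamputated library (0.071). Of the partners, Vps52 was at -0.43 (adjusted p = 0.019) and Vps50, the EARP subunit, at -1.10 (adjusted p = 0.00022) in the same contrast.

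Against keratinocyte-like cells, Tm9sf2 was higher (0.73, SE 0.11, adjusted p = 0.0012) and Gpr108 too (0.35, adjusted p = 0.035). Vps53 (-0.89, SE 0.13, adjusted p = 0.00095), Vps54 (-0.85, SE 0.13, adjusted p = 0.0015) and AU040320 (-0.61, SE 0.13, adjusted p = 0.0048) were lower. That is 2 higher and 3 lower, beside 34.3% and 32.4% of 16058 genes. Gpr108 lost its call without the unamputated (adjusted p = 0.060), 17 dpa (0.11) or 28 dpa library (0.088).

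Against neutrophil-like cells, Rnf121 (1.26, SE 0.43, adjusted p = 0.022) and Tm9sf2 (1.11, SE 0.31, adjusted p = 0.0072) were higher and Vps54 lower (-1.48, SE 0.35, adjusted p = 0.0023), beside 36.4% and 26.5% of 14460 genes. The neutrophil-like class lacked the cells of the clusters led by Retnlg and by Chil3 at 12 and 28 dpa. The part of this mix in the contrast was not tested. Scaling by total UMIs in place of TMM moved the median of all genes in this contrast from 0.48 to 1.17 and the split of calls from 5268 higher and 3835 lower to 7491 and 2867. Under it Gpr108 was also higher, at 1.11 (adjusted p = 0.011). Against endothelial-like cells the same change moved the median of all genes from 0.06 to -0.14 and the split from 5177 higher and 4216 lower to 4168 and 5418, and Vps53 became lower, at -0.41 (adjusted p = 0.040). Tm9sf2 lost its call against neutrophil-like cells without the 17 dpa library (adjusted p = 0.059), and Rnf121 without the unamputated (0.064), 17 dpa (0.072) or 28 dpa library (0.066).

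Atp2c1 passed edgeR's test in 0 of the 4 contrasts, 0 of 4 at an unadjusted p under 0.05 and 0 of 4 by DESeq2, with differences of -0.06, -0.02, -0.06 and -0.80 against endothelial-, macrophage-, keratinocyte- and neutrophil-like cells, the last with an SE of 0.39 and an unadjusted p of 0.063. The calls of Gpr108, Tm9sf2 and Rnf121 against endothelial-like cells held under all alternatives run. So did those of Vps51 and Vps53 against macrophage-like cells, of AU040320, Tm9sf2, Vps53 and Vps54 against keratinocyte-like cells, and of Vps54 against neutrophil-like cells.

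**Figure D4:**
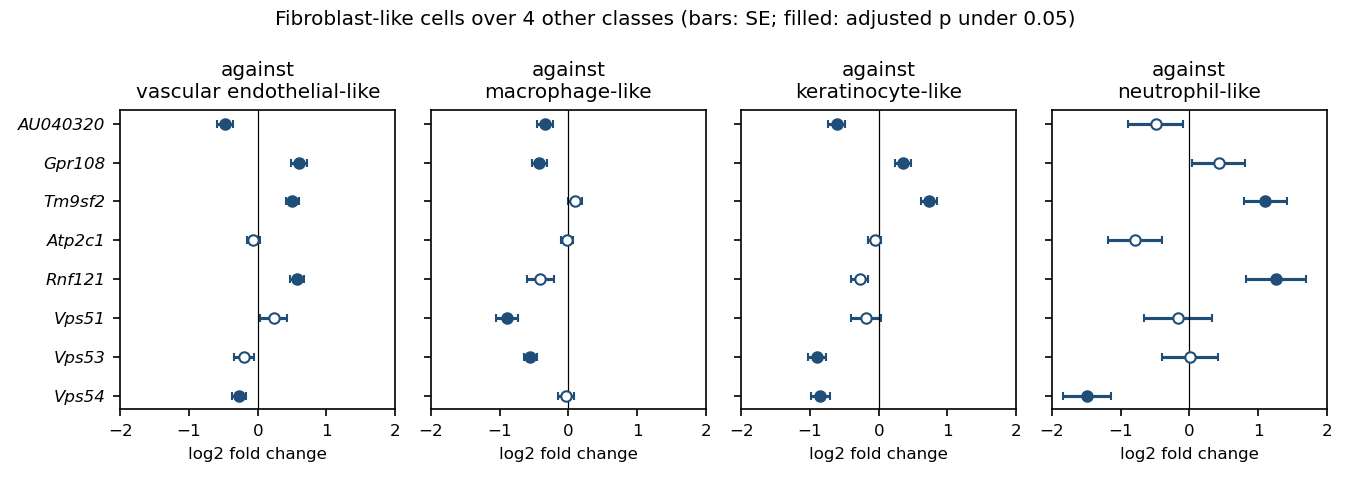
Log2 difference of fibroblast-like over another class (x axis) with its SE for each of the 8 genes, in contrasts with vascular endothelial-, macrophage-, keratinocyte- and neutrophil-like cells, over 4 libraries, with filled points for an adjusted p under 0.05 in edgeR's quasi-likelihood test. AU040320 is left of 0 in all 4 contrasts (but at 0.20 against neutrophil-like cells when scaled by total UMIs) and filled in 3, and Tm9sf2 is right of 0 in all 4 and filled in 3.

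Vps54 stood out in T or NK-like cells, at 338 CPM on average against 92.4 CPM in the next class. In these cells it was at 602 CPM (95% counting interval 562 to 643, 865 UMIs in 274 cells) in the unamputated library, 321 (276 to 372, 180 UMIs in 157 cells) at 12 dpa, 230 (190 to 277, 113 UMIs in 115 cells) at 17 dpa and 199 CPM (143 to 269, 42 UMIs in 77 cells) at 28 dpa. All 4 levels lay above those of fibroblast-like cells, the lowest of them more than the 61.1 CPM of the highest fibroblast-like value. A Vps54 UMI was seen in 196, 75, 55 and 23 of these cells, with at most 29, 8, 5 and 5 UMIs in 1 cell, and no background share from free RNA was set for it. Median depth in the class was 4609, 3027, 3658 and 2465 UMIs per cell.

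These lymphocytes were then divided by a UMI of Foxp3, the defining factor of regulatory T cells, or of Ncr1, a receptor of NK and related innate cells, a division chosen after the values were seen. Cells with a Foxp3 UMI, 106, 61, 18 and 13 of them, had Vps54 at 778, 367, 420 and 257 CPM in the unamputated, 12, 17 and 28 dpa libraries. Cells with an Ncr1 UMI in the unamputated library, 66 of them, had 177 CPM (134 to 230), and cells with neither had 646 CPM. In the other libraries the cells with an Ncr1 UMI numbered 3, 14 and 5 and gave 1, 8 and 1 Vps54 UMIs, too few to set a level. No other gene of the deposited feature table overlaps Vps54 in GENCODE M21.

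**Figure D5:**
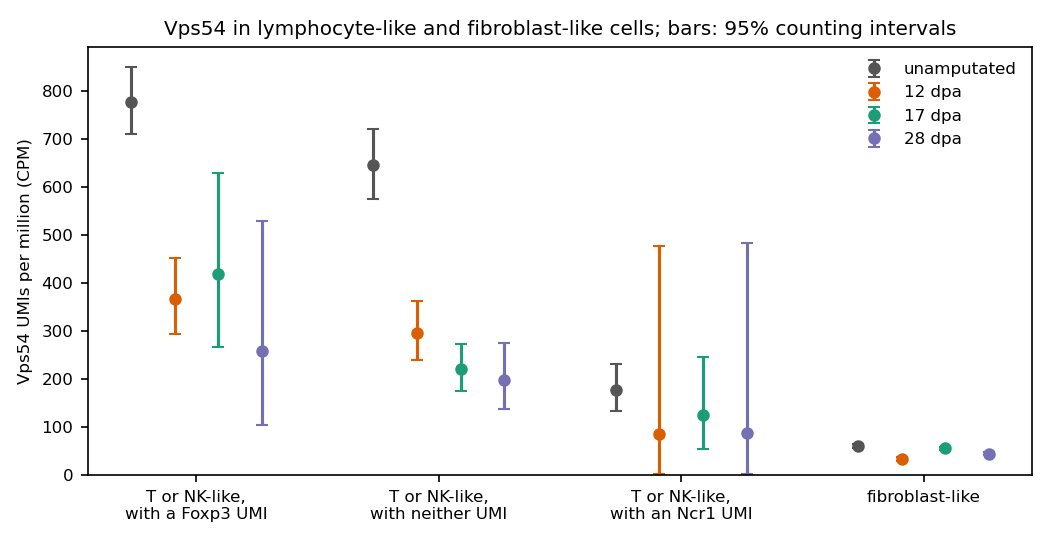
Vps54 level (y axis, CPM) in T or NK-like cells with a Foxp3 UMI, with neither UMI or with an Ncr1 UMI, and in fibroblast-like cells, with 1 colour per library and exact 95% counting intervals. The unamputated library is highest in cells with a Foxp3 UMI at 778 CPM, and its cells with an Ncr1 UMI lie at 177 CPM, between its other T or NK-like cells and its fibroblast-like cells at 61.1 CPM.

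The 8 genes did not share a single pattern over the 40 sums of 10 classes by 4 libraries. Pearson's r of log2(CPM + 1), given as a description because the sums share libraries and depth, was 0.70 between Tm9sf2 and Rnf121 and 0.63 between Gpr108 and each of Tm9sf2 and Rnf121. Between GARP subunits it was 0.20 for Vps51 and Vps53, 0.07 for Vps51 and Vps54 and 0.00 for Vps53 and Vps54. Among 11822 genes, those most like AU040320 were Secisbp2 (r = 0.81), Taco1, Kdm3b, Oma1 and Prr14l (0.77 each). Of the other 7 members, Vps53 was the most like AU040320, at 0.74, and Gpr108 the least, at -0.07.

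The rest of the entry route was described with 5 lists of 55 host genes in all. The list genes given by name, other than Vps50 and Vps52, were chosen after their values were seen, as those past the threshold. The share of all genes past 1.5-fold in fibroblast-like cells was 41.2%, 8.17% and 27.2% at 12, 17 and 28 dpa, and the share of each list was below it at all 3 times, so the named genes describe the lists and do not set them apart. Of 17 further genes of GARP, EARP and endosome-to-Golgi traffic, 1 was higher by at least 1.5-fold (Sys1, which helps recruit Golgi tethers, 0.83) and 4 were lower in fibroblast-like cells at 12 dpa. The lower ones were the SNARE gene Vti1a (-0.68), the retromer gene Vps26a (-0.74) and the sorting nexin genes Snx1 (-0.59) and Snx2 (-0.65). At 17 and 28 dpa, 0 of 17 were past it, with list medians of -0.32, -0.07 and -0.08 in order of time. Of 15 genes of heparan sulfate and sialic acid glycan synthesis, Ext1 and Hs6st1, both enzymes of heparan sulfate chains, were lower at 12 dpa (-0.61 and -0.72) and at 28 dpa (-0.69 and -0.64), and 0 were past the threshold at 17 dpa.

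Of 10 reported co-receptors, 9 passed the minimum. Egfr, the epidermal growth factor receptor, was lower at 12 and 28 dpa (-1.03 and -0.84), Pdgfra, which is also a fibroblast marker, was lower at 12 dpa (-0.88), the laminin receptor and ribosomal gene Rpsa was higher at 12 dpa (0.75), and the tetraspanin gene Cd9 was higher at 28 dpa (0.92). Of 5 genes of capsid processing and nuclear entry, 0 were past it in any of the 3 comparisons. Of 8 genes reported to restrict AAV genomes, Phf5a was higher (1.08) and Morc3 (-0.69) and Zfp638 (-0.95) lower at 12 dpa, and Setdb1 lower at 28 dpa (-0.71). No gene of these lists was past 1.5-fold in the same direction in all 3 comparisons.

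In edgeR's test between classes, 7 of the 17 trafficking genes were higher and 3 lower in fibroblast-like than in endothelial-like cells, 3 and 9 against macrophage-like cells, 7 and 3 against keratinocyte-like cells, and 4 and 4 against neutrophil-like cells. Of all genes, 33.7%, 32.5%, 34.3% and 36.4% were higher and 27.4%, 29.9%, 32.4% and 26.5% lower in the same contrasts. The list medians were 0.22, -0.43, 0.21 and 0.11, beside 0.06, 0.00, -0.01 and 0.48 for all genes. Of the 15 glycan synthesis genes, 8, 6 and 10 were higher and 3, 3 and 2 lower against endothelial-, macrophage- and keratinocyte-like cells, with medians of 0.39, 0.22 and 0.66, and 8 were higher and 1 lower against neutrophil-like cells. Of the 8 restriction genes, 4, 0 and 0 were higher and 1, 1 and 5 lower, with medians of 0.31, -0.03 and -0.45. Against neutrophil-like cells, 3 were higher and 1 lower, with a median of 0.46. Of the 10 co-receptors, 7, 4 and 7 were higher and 2, 3 and 2 lower against endothelial-, macrophage- and keratinocyte-like cells, and 7 and 2 against neutrophil-like cells. Pdgfra helped to define the fibroblast-like class, so its own difference is no finding. Of the 5 genes of capsid processing and nuclear entry, 2, 0, 2 and 2 were higher and 0, 2, 2 and 0 lower in the 4 contrasts.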

How the data were processed

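Single-cell 3′ RNA libraries (10x Chromium v3 chemistry, per the labels' protocols) were analysed from 4 samples, 1 per group. The deposited matrices hold whole-number UMI counts per gene and barcode, made by the authors with Cell Ranger 7.1.0 on mm10, per the submitters' processing notes. The annotation and whether intronic reads were counted are not given in the sources used here. IDs of 32235 of 32285 genes matched GENCODE M21 (GRCm38). No per-sample column was left unused (0).

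Barcodes needed 500 genes, 1000 UMIs and no more than 10% of UMIs from mitochondrial genes, and those with the highest Scrublet scores were removed at 0.8% per 1000 barcodes. Cells were clustered jointly in scanpy 1.11.5 (10000 UMIs per cell, 2000 variable genes, 30 components, 15 neighbours, Leiden resolution 1), with the 8 genes and the host gene lists left out. Of the lists, Pdgfra alone was kept, as a fibroblast marker. Mitochondrial genes, the Y-linked genes used for sex, Xist and Tsix were left out too. The 33 clusters were named from marker lists where at least 3 markers were each detected in 25% of cells and no other class had more markers among the 10 leading genes, and 4 stayed unnamed. This naming rule was written after clusters of these data had been seen. UMIs were summed by class and library.

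Ratios to the unamputated library are of CPM, with exact conditional Poisson intervals at 95%, over genes of at least 5 CPM in either library. Classes were compared with edgeR 4.0.16 in R 4.3.3, whose quasi-likelihood test was tested on simulated data, with DESeq2 1.42.0 as an alternative. The rule for named genes took the 8 members, Vps50 and Vps52, list genes past 1.5-fold the same way in all 3 dpa libraries, of which there were 0, and the 5 genes most like AU040320. Other list genes were named outside this rule, after their values were seen. The members, markers and lists were chosen with earlier results of these data known.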

Additional observations from a re-analysis of the deposited data

Results flagged for a closer look

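In 3 cases, the counting intervals of a gene's ratio to the unamputated library lay on opposite sides of 0 in different cell classes. Rnf121 at 12 dpa had a log2 ratio of 0.29 in macrophage-like and -0.25 in fibroblast-like cells. Tm9sf2 at 17 dpa had 0.14 in fibroblast-like and 0.25 in macrophage-like cells against -0.15 in keratinocyte-like cells. Tm9sf2 at 28 dpa had 0.14 in macrophage-like and -0.27 in keratinocyte-like cells. Centred on genes of similar span, none of these opposite signs was left, with 0.64 and 0.10 for Rnf121, 0.22, 0.34 and 0.12 for Tm9sf2 at 17 dpa, and 0.34 and 0.10 for it at 28 dpa. With 1 library per group, the differences between classes were not tested. Each group held 1 sample, so none could be checked for a sample far from the rest.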

How the results depend on the processing

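Members past 1.5-fold were counted again under each alternative. For all kept cells, the count of 1 at 12 dpa became 2 with the stricter filter on cells and with TMM factors and 0 at 2-fold and when centred on genes of similar span. The 0 at 17 dpa became 1 with means over cells, and the 2 at 28 dpa became 0 at 2-fold and span-centred. With TMM factors that count stayed at 2 with both genes exchanged, AU040320 (-0.44) and Vps54 (-0.47) falling under the threshold and Gpr108 and Vps51 (both 0.67) passing it. In fibroblast-like cells, the 2 at 12 dpa became 0 with the looser filter, at Leiden resolution 2, at 2-fold and span-centred, and 1 with each cell named alone, with unnamed clusters given their best class and with means over cells. The 0 at 17 dpa became 1 with the looser filter, and the 2 at 28 dpa became 0 at 2-fold and 1 with at least 20 CPM and span-centred. In endothelial-like cells, the 0 at 12 dpa became 1 with the stricter filter, the 0 at 17 dpa became 1 with means over cells, and the 1 at 28 dpa became 0 with the looser filter, no doublets removed, each cell named alone, TMM factors, means over cells, 2-fold and span-centring. In macrophage-like cells, the 1 at 12 dpa became 3 with the stricter and looser filters and best classes, 2 with no doublets removed, Leiden resolution 2, cells named alone and means over cells, and 0 at 2-fold, and stayed at 1 when span-centred with Rnf121 (0.64) in place of Vps54 (-0.27). The 0 at 17 dpa became 1 with means over cells, and the 4 at 28 dpa became 2 with the stricter filter, 1 with TMM factors and span-centred and 0 at 2-fold. In keratinocyte-like cells, the 2 at 28 dpa became 0 with TMM factors, at 2-fold and span-centred and 1 with means over cells. Of the ratios past 1.5-fold, 1 changed sign, that of AU040320 at 12 dpa in fibroblast-like cells, 0.12 with the looser filter, and the cause was not tested. Ratios under the threshold changed sign more often, mainly with TMM factors and span-centring. Of the other single-gene ratios, 1348 values moved by less than the counting interval and 163 moved by more. The 2-fold threshold and the other CPM minimums do not enter a ratio, so all values under them are among the 1348. Of the counts of members above, 145 values stayed within 1.5 times the count reported and 44 did not. A count of 0 at 1.5-fold has to be 0 at 2-fold. Dropping the CPM minimum changes no count, because all members passed it. Part of the 145 was thus fixed in advance.

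In the class contrasts, members lower than in endothelial-like cells numbered 0 with the looser filter, 1 at Leiden resolution 2, with clusters led by a fibroblast marker only, with DESeq2 and with no filter on low counts, and 1 to 2 when leaving out a library. Members lower than in macrophage-like cells numbered 2 to 3 when leaving out a library. Members higher than in keratinocyte-like cells numbered 1 with total UMIs and 1 to 2 when leaving out a library. Members higher than in neutrophil-like cells numbered 1 with no doublets removed and 0 to 2 when leaving out a library, and members lower numbered 3 with the stricter filter and 1 to 2 when leaving out a library. No paired analysis was possible between dpa and unamputated tissue because each group held 1 library, and in the class contrasts the library was already the block. Span-centring, best classes, clusters led by a fibroblast marker only and total UMIs were added after seeing the data. In fibroblast-like cells, counting error limits Vps51 most, with 67 UMIs at 12 dpa. In endothelial-like cells Vps51 had fewer, 29 UMIs at 17 dpa and 30 at 28 dpa.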
